A study of Gallus gallus with 20 samples.

Results

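RNA of cell surface CD antigens was compared in breast muscle and liver of chickens fed a control or an L-methionine-deficient diet. The members are the genes whose symbol in the deposited files is CD, a number and at most one trailing block of letters and digits, with CD74, CD2AP and CD2BP2 left out. This gave 44 genes with 43 symbols, among 17108 genes in the files, because CD8A is carried by 2 gene identifiers. By textbook expression 26 were taken as leukocyte-restricted and 17 as broadly expressed, and CD1A1 was left without a class. The birds were male broilers (Gallus gallus) of the Ross 708 breed, sampled at post-hatch day 35. Control birds ate a diet with L-methionine and the others an L-methionine-deficient diet, from week 3 to week 5 of age. Pectoralis major (breast muscle) and liver were frozen and extracted with no sorting of cells named, so RNA of muscle fibres or hepatocytes, vessels, connective tissue and leukocytes was sequenced together. Each of the 4 groups (breast control, breast deficient, liver control, liver deficient) held 5 libraries, and the labels count 5 birds per diet. They do not say whether equal numbers in breast and liver are the same bird.

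CD numbers name cell surface molecules by the antibodies that bind them, and most were defined on leukocytes of mammals, from which the roles below are taken unless chickens are named. On a T cell the T cell receptor signals through CD3 chains and the zeta chain CD247, with CD4 or CD8 as coreceptor and CD28 as costimulatory receptor. Antigen-presenting cells supply the other side, with CD80 and CD86 as ligands of CD28, CD40 as receptor of the T cell ligand CD40LG, and CD274 (PD-L1) as an inhibitory ligand. Other CD antigens are made by many cell types: tetraspanins organise membrane proteins, CD44 binds hyaluronan, CD36 takes up fatty acids, and CD34 and CD93 mark endothelium.

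Assigned sequence came to between 1.40 and 2.75 gigabases per library, computed as coverage times length. Between 32 and 37 members reached an FPKM of 1 in a control breast library, between 25 and 29 in a deficient breast library and between 32 and 36 in a liver library. FPKM (fragments by transcript length and library size) was scaled between libraries of a tissue by median ratios and is called scaled FPKM below. Summed myocyte markers were between 33990 and 100700 scaled FPKM in breast and between 34.0 and 46.8 in 9 liver libraries, but 635 in liver control 1. In liver control 4 and liver deficient 1 a single gene took 54.6% and 20.9% of the FPKM sum, against at most 6.16% in the other liver libraries. Calls that moved without these libraries are given beside the results, and directions with the processing alternatives.

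Broadly expressed members led the order of levels in both tissues. Values of this paragraph are means ± SD of FPKM scaled over the 20 libraries together, on the control diet (n = 5). In breast, CD99, an adhesion glycoprotein, stood first at 183 ± 16.1, followed by the tetraspanin CD81 at 114 ± 5.60, the sialomucin CD164 at 79.6 ± 5.53 and CD47, the "do not eat me" ligand of phagocytes, at 45.9 ± 2.16. The most abundant leukocyte-restricted member was CD3D, a chain of the T cell receptor complex, at 26.4 ± 6.85, which overlapped the tetraspanins CD82 (27.9 ± 2.46) and CD151 (26.4 ± 3.11) within 1 SD. In liver the order was CD81 at 240.0 ± 32.8, CD164 at 139 ± 6.08, CD47 at 113 ± 8.99 and CD36 at 88.3 ± 5.18, and CD99 stood at 10.9 ± 2.05. CD3D again led the leukocyte-restricted members at 39.6 ± 10.7 and did not differ from CD151 (42.7 ± 10.6) or CD82 (38.4 ± 7.84) beyond the spread. Mean scaled FPKM stayed under 1 in all 4 groups for 8 members: CD1A1, CD8B, CD79B, CD101, CD109, CD200R1, CD226 and the shorter CD8A model.

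**Figure D1:**
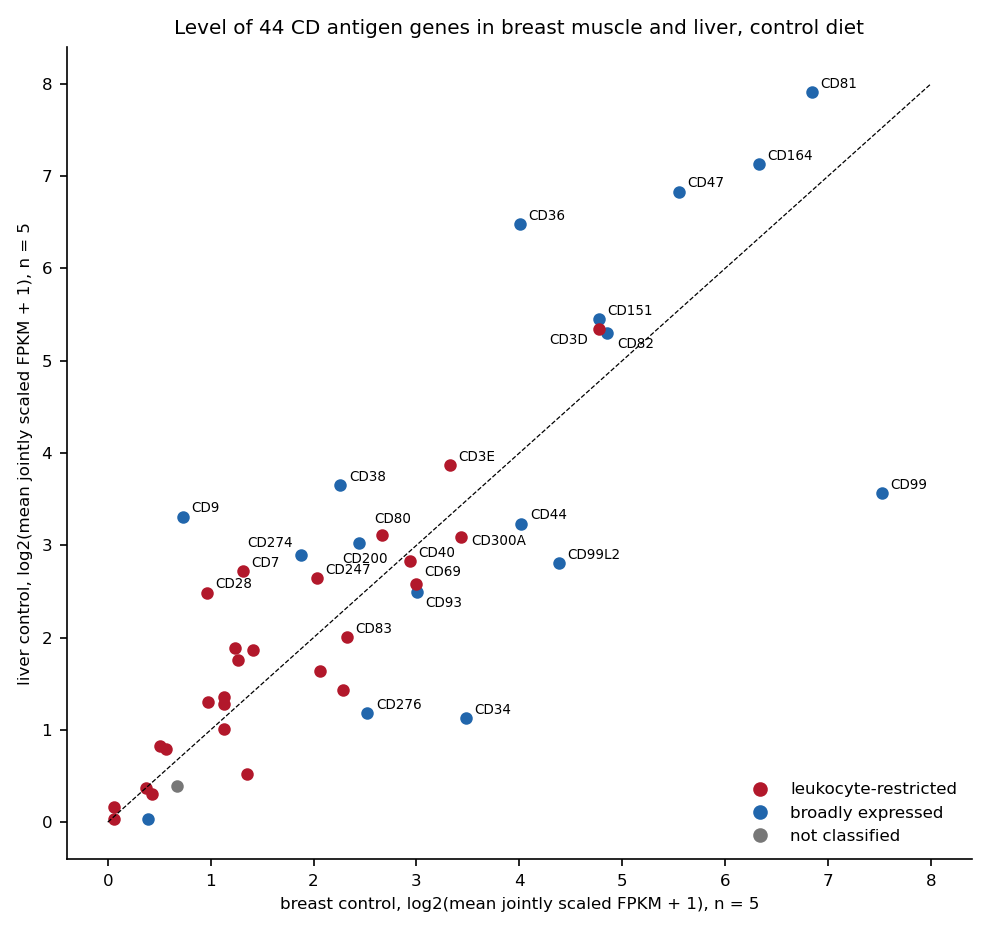
Mean level of the 44 CD antigen genes in control breast (x axis) and control liver (y axis), both as log2 of jointly scaled FPKM plus 1 (n = 5 libraries each); the dashed line marks equal levels. CD99, CD34, CD99L2 and CD276 lie below the line and CD36, CD9, CD28 and CD7 above it.

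The diet comparison in breast muscle asked which surface antigens changed when methionine was short. Of 31 members tested, 15 were lower on the deficient diet and 0 were higher (limma, adjusted p under 0.05, with 20 of the 31 under an unadjusted p of 0.05). Over all 10178 genes tested, 14.6% were called lower and 12.9% higher, so the members' falls (48.4%) exceeded the background share and their rises stayed below it. The falls held 8 of 16 leukocyte-restricted members (50%) and 7 of 15 broadly expressed ones (46.7%). The median log2 change was -0.60 in the former and -0.26 in the latter, beside 0.004 over all genes. All deficient libraries lay below all controls for 12 of the 31 members tested, where 10.1% of all genes did so, and these 12 were among the 15 called. No member lay wholly above its controls, where 8.16% of all genes did, and of the called members CD3E, CD72 and CD200 overlapped. In whole muscle, fewer cells of a type and less RNA per cell cannot be told apart. With quantile normalization or a pseudocount of 0.1, 1 member was called higher, CD38. Without scaling between libraries the median of all genes moved to -0.248 and 9.14% of 3522 calls were higher, against 1314 higher and 1491 lower calls in the scaled data, and 20 members were lower. With upper-quartile scaling 36.4% of calls were higher and 17 members were lower. Which members passed the filter depended on their mean over both diets, and 13 of the 44 did not pass it. CD4, CD14, CD72 and CD274, counted among the 15, averaged under 1 in deficient breast (0.713, 0.859, 0.582 and 0.888). They passed only through their control libraries, so their place among the members tested is not independent of their fall.

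**Figure D2:**
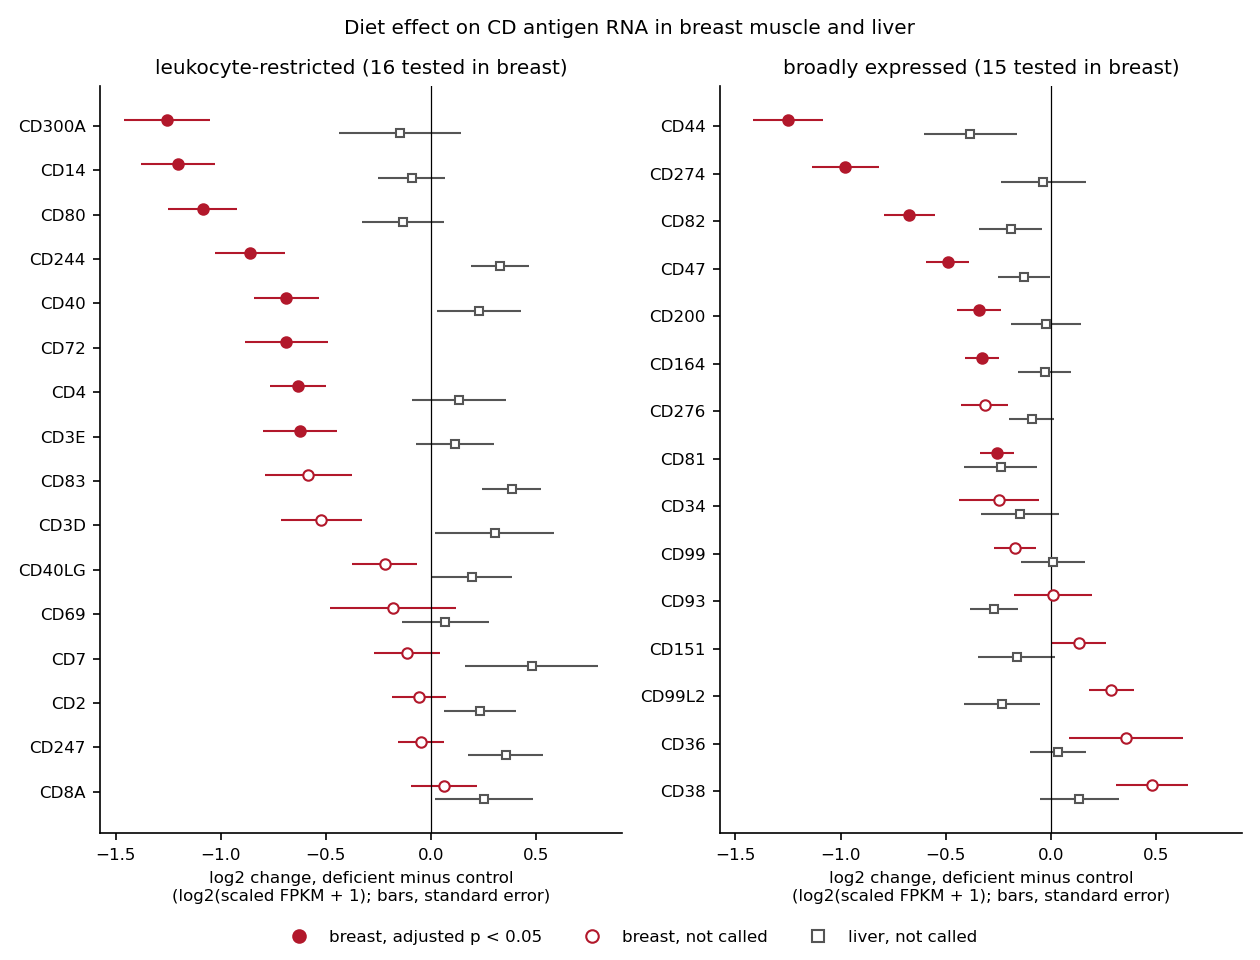
Log2 change on the deficient diet (x axis, log2 of scaled FPKM plus 1, bars show the standard error) for the 16 leukocyte-restricted and 15 broadly expressed members tested in breast; circles are breast, filled where the adjusted p was under 0.05, and squares are liver. The breast values run from -1.25 to 0.48, and no liver value was called.

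Among myeloid and antigen-presenting cell antigens 4 of the 5 tested members fell in breast, where 14.6% of all genes tested were called lower. Only these 5 of 8 such members passed the filter. CD14, the coreceptor for bacterial lipopolysaccharide on macrophages (ENSGALG00000021559, galGal4 chromosome 13, 402430 to 403827), had 2.47, 4.04, 3.63, 2.77 and 3.17 scaled FPKM in control libraries 1 to 5 and 1.20, 1.16, 0.206, 1.07 and 0.662 in deficient libraries 1 to 5. Every deficient library was below every control, and the means were 3.22 ± 0.635 and 0.859 ± 0.423 (SD, n = 5 each), 3.75-fold lower. The fitted change was log2 change -1.20 ± 0.18 SE, limma adjusted p = 0.00167. Fitted changes are on the log2(scaled FPKM + 1) scale, which understates the change of genes this low. The CD14 model lies wholly inside that of TMCO6, whose own change was 0.35 ± 0.17 (SE, limma adjusted p = 0.158), opposite in sign, and the sources used here do not say whether reads were assigned by strand.

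CD80, a ligand of CD28 on antigen-presenting cells, had 4.40, 6.2, 3.92, 6.36 and 6.17 in control breast and 2.18, 2.0, 1.55, 1.39 and 3.02 in deficient breast. The groups did not overlap and the mean was 2.67-fold lower (log2 change -1.09 ± 0.16 SE, limma adjusted p = 0.00182). CD300A, an inhibitory receptor of myeloid cells in mammals, had 7.25, 12.8, 8.47, 8.70 and 12.3 in controls and 3.40, 3.30, 2.18, 3.31 and 5.95 in deficient libraries, again without overlap (log2 change -1.25 ± 0.21 SE, limma adjusted p = 0.00247). It belongs to a multigene family, so reads may be split among its relatives. CD40, the receptor of CD40LG, had 7.04, 7.21, 7.17, 5.98 and 6.28 in controls and 5.77, 4.13, 2.35, 3.66 and 3.64 in deficient libraries, where deficient 1 came close to the lowest control (log2 change -0.69 ± 0.16 SE, limma adjusted p = 0.00975). CD83, a protein of mature dendritic cells, was not called: it had 5.29, 4.42, 4.03, 3.85 and 2.62 in controls and 2.06, 1.98, 1.36, 2.47 and 4.34 in deficient libraries. Deficient 5 was above 3 of the controls and control 5 was the lowest of its group (log2 change -0.58 ± 0.21 SE, limma adjusted p = 0.0579), and leaving out either one gave an adjusted p of 0.00786 or 0.0352. CD86, the other ligand of CD28, did not pass the filter, yet its 1.30, 0.892, 1.58, 1.32 and 0.930 in controls and 0.166, 0.294, 0.383, 0.495 and 0.238 in deficient libraries did not overlap, a mean 3.82-fold lower.

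**Figure D3:**
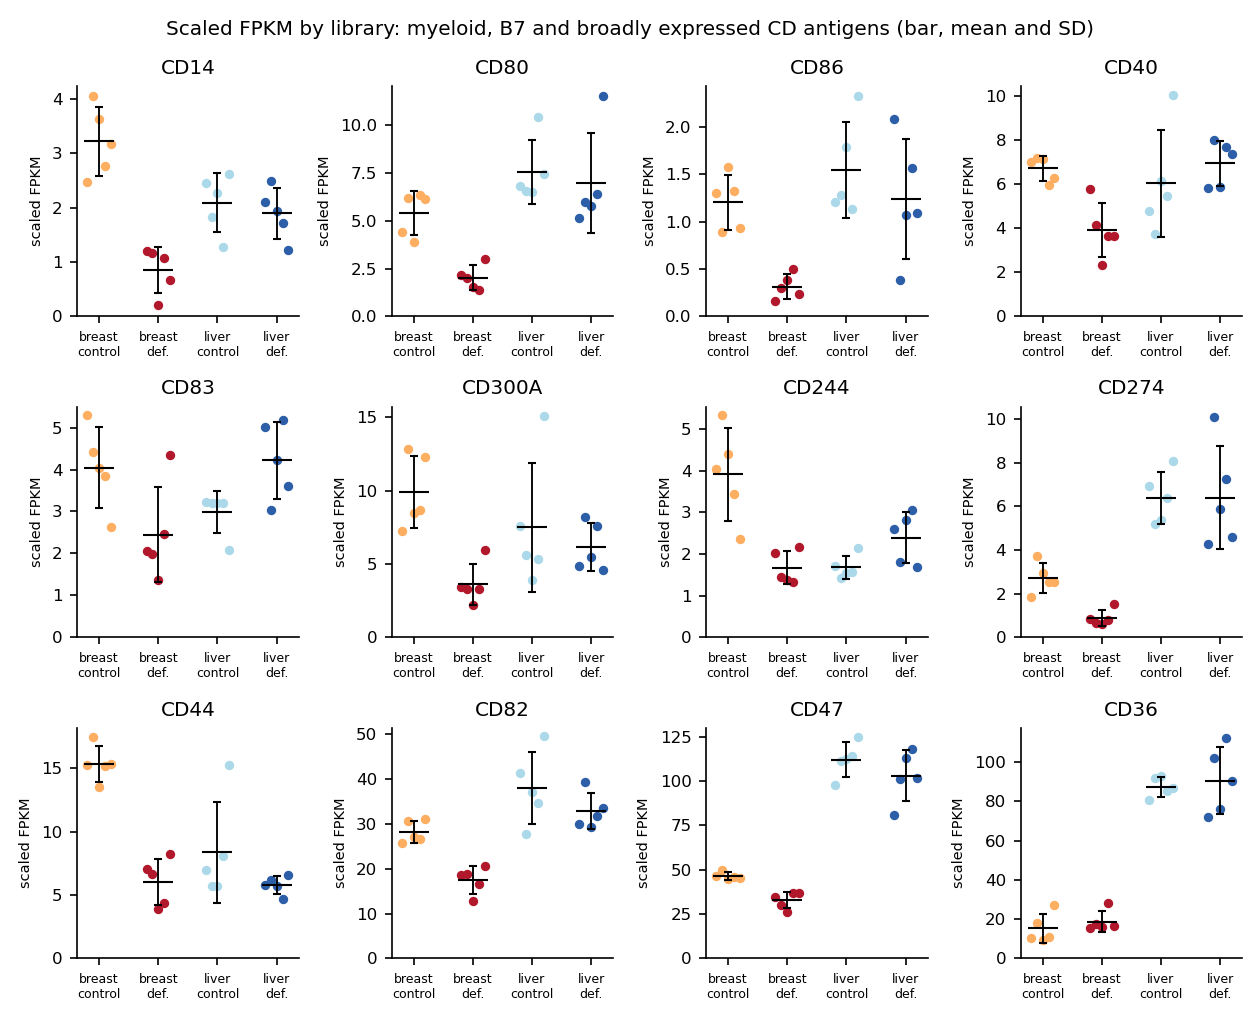
Scaled FPKM (y axis, from 0) in each library of the 4 groups for 12 CD antigens; points are libraries 1 to 5 from left to right and bars the mean and SD (n = 5). The 5 deficient breast points lie below the 5 controls for CD14, CD80, CD86, CD40, CD300A, CD244, CD274, CD44, CD82 and CD47, and overlap them for CD83 and CD36.

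Of the 5 adhesion and matrix members tested, 3 fell in breast, where 14.6% of all genes tested were called lower. CD44, the hyaluronan receptor (ENSGALG00000007849, chromosome 5, 18248884 to 18303314), had 15.3, 17.5, 13.5, 15.2 and 15.4 in control libraries and 7.08, 6.63, 3.92, 4.40 and 8.23 in deficient ones. The highest deficient library was well under the lowest control, with means of 15.4 ± 1.42 and 6.05 ± 1.83 (SD, n = 5 each), 2.54-fold lower (log2 change -1.25 ± 0.17 SE, limma adjusted p = 0.0013). CD47 went from 46.4, 49.9, 44.5, 45.7 and 45.1 in controls to 34.7, 30.0, 26.3, 36.9 and 36.6 in deficient libraries, a smaller change without overlap (log2 change -0.49 ± 0.10 SE, limma adjusted p = 0.00711). CD164 had 80.4, 84.9, 78.8, 71.8 and 86.2 in controls and 62.2, 66.6, 59.7, 61.8 and 68.8 in deficient libraries, and its groups too were apart (log2 change -0.33 ± 0.083 SE, limma adjusted p = 0.0153). CD99 and CD99L2, a pair of related adhesion proteins, were not called, the former with log2 change -0.17 ± 0.10 SE, limma adjusted p = 0.228 and the latter with log2 change 0.29 ± 0.11 SE, limma adjusted p = 0.0642. Leaving out control 3 brought CD99L2 to an adjusted p of 0.031, on the higher side.

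Among the tetraspanins, CD82 had 25.7, 30.6, 27.0, 26.5 and 31.1 in controls and 18.6, 18.8, 12.7, 16.6 and 20.7 in deficient libraries, with every deficient library below every control (log2 change -0.67 ± 0.12 SE, limma adjusted p = 0.00392). CD81 had 109.7, 123, 114, 118 and 111 in controls and 92.3, 96.4, 90.4, 93.9 and 108 in deficient libraries. Its groups were separate but close, the change was small (log2 change -0.26 ± 0.081 SE, limma adjusted p = 0.0376), and the call was lost when any library other than deficient 5 was left out (adjusted p between 0.0553 and 0.0888). CD151, which binds laminin-binding integrins, was not called (log2 change 0.13 ± 0.13 SE, limma adjusted p = 0.471).

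The B7 family ligand CD274 (PD-L1) had 1.86, 3.74, 2.94, 2.51 and 2.53 in controls and 0.817, 0.644, 0.624, 0.814 and 1.54 in deficient libraries, 3.06-fold lower in the mean and without overlap (log2 change -0.98 ± 0.16 SE, limma adjusted p = 0.00246). Its relative CD276 (B7-H3) went from 4.80 ± 0.871 to 3.64 ± 0.468 (SD, n = 5 each) and was not called (log2 change -0.32 ± 0.11 SE, limma adjusted p = 0.0578), but it was without control 1 (adjusted p = 0.0469) or deficient 2 (0.0434). CD200, a ligand that restrains myeloid cells, had 5.40, 4.39, 5.02, 3.54 and 4.03 in controls and 3.16, 3.34, 2.95, 3.80 and 3.20 in deficient libraries. Control 4 lay within the deficient range (log2 change -0.34 ± 0.10 SE, limma adjusted p = 0.0311), and the call was lost without any 1 of control 1, 2 or 3 or deficient 1, 2 or 3 (adjusted p between 0.0518 and 0.0689). CD38, an enzyme that breaks down NAD, had 4.42, 4.35, 3.73, 3.00 and 3.68 in controls and 4.38, 4.71, 9.45, 5.80 and 5.20 in deficient libraries. Deficient 3 stood far above the rest, and the higher mean was not called (log2 change 0.48 ± 0.17 SE, limma adjusted p = 0.0553). It was called higher without deficient 1 (adjusted p = 0.0371), with quantile normalization (0.0301) and with a pseudocount of 0.1 (0.05 after rounding).

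Neither CD36 nor the endothelial members were called in breast. CD36, the fatty acid receptor, had 10.6, 18.0, 9.48, 10.8 and 27.1 in controls and 15.4, 17.7, 15.8, 28.1 and 16.6 in deficient libraries, with control 5 and deficient 4 far above the others of their group (log2 change 0.36 ± 0.27 SE, limma adjusted p = 0.351). CD34 had 13, 8.17, 13.6, 9.0 and 7.73 in controls and 8.93, 11.5, 6.89, 9.10 and 6.07 in deficient libraries, which overlapped (log2 change -0.25 ± 0.19 SE, limma adjusted p = 0.36). CD93 was 7.09 ± 1.45 and 7.27 ± 2.09 (SD, n = 5 each, log2 change 0.010 ± 0.19 SE, limma adjusted p = 0.975). The summed levels of 14 endothelial markers ranged from 104 to 136 scaled FPKM in controls and from 106 to 142 in deficient breast libraries.

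Of 10 T and NK cell members tested in breast, 3 fell and 7 were not called, with a median log2 change of -0.20. Over all genes tested in breast 14.6% were called lower. CD244, a receptor of NK cells and some T cells (2B4), had 4.03, 5.32, 4.40, 3.43 and 2.35 in controls and 2.03, 1.44, 1.37, 1.34 and 2.16 in deficient libraries, without overlap (log2 change -0.86 ± 0.17 SE, limma adjusted p = 0.00494). CD4 had 2.07, 1.89, 1.51, 1.03 and 1.87 in controls and 0.580, 0.893, 0.531, 0.652 and 0.910 in deficient libraries, also without overlap and 2.35-fold lower in the mean (log2 change -0.63 ± 0.13 SE, limma adjusted p = 0.00749). CD3E had 9.97, 12.4, 7.95, 5.79 and 9.45 in controls and 4.51, 4.23, 6.57, 5.95 and 6.13 in deficient libraries. Control 4 lay within the deficient range (log2 change -0.62 ± 0.18 SE, limma adjusted p = 0.0242), and the call was lost without control 1, control 2 or deficient 2 (adjusted p between 0.0533 and 0.0562).

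The other chains of the receptor complex were not called in breast. CD3D, whose gene lies 1952 bases from CD3E on chromosome 24, had 26.5, 37.3, 23.5, 18.4 and 27.7 in controls and 15.1, 13.3, 24.4, 18.6 and 19.5 in deficient libraries (log2 change -0.52 ± 0.19 SE, limma adjusted p = 0.0654), and it passed the threshold without control 4 (adjusted p = 0.0361) or deficient 3 (0.0406). CD247 had 3.43, 3.55, 2.82, 2.35 and 3.53 in controls and 2.36, 3.21, 3.13, 3.07 and 3.14 in deficient libraries, nearly the same range (log2 change -0.049 ± 0.11 SE, limma adjusted p = 0.764). CD8A had 0.910, 1.53, 0.860, 0.587 and 1.02 in controls and 0.770, 1.12, 1.29, 1.48 and 0.674 in deficient libraries, likewise overlapping (log2 change 0.061 ± 0.16 SE, limma adjusted p = 0.796). Its longer model (ENSGALG00000015816) contains the shorter one (ENSGALG00000015900) and overlaps models without a symbol, so its value is uncertain.

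CD28 did not pass the filter in breast, with 1.16, 1.16, 1.43, 0.557 and 0.532 in controls and 0.554, 1.13, 0.252, 1.67 and 0.462 in deficient libraries. CD2, an adhesion receptor, CD7, CD40LG and the activation antigen CD69 were tested and not called, with log2 changes between -0.22 for CD40LG and -0.06 for CD2. Within the complex, the ratio of CD247 to CD3E in the same library was between 0.285 and 0.406 in control breast and between 0.477 and 0.758 in deficient breast. The ratio of CD8A to CD4 was between 0.440 and 0.808 in controls and between 0.741 and 2.42 in deficient breast, so only deficient 5 reached into the control range. In liver the CD247 to CD3E ratio was between 0.349 and 0.451 on the control diet and between 0.406 and 0.546 on the deficient diet, higher in the mean (0.383 and 0.470) with overlapping libraries. The liver CD8A to CD4 ratio was between 0.299 and 1.49 on the control diet and between 0.389 and 1.41 on the deficient diet. These ratios do not depend on scaling between libraries and were looked at after the values were seen. In breast, CD3E and CD4 fell, so any gene whose own level held would rise against them. No share over all genes was computed for these ratios, so they do not show a change particular to CD247 or CD8A.

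**Figure D4:**
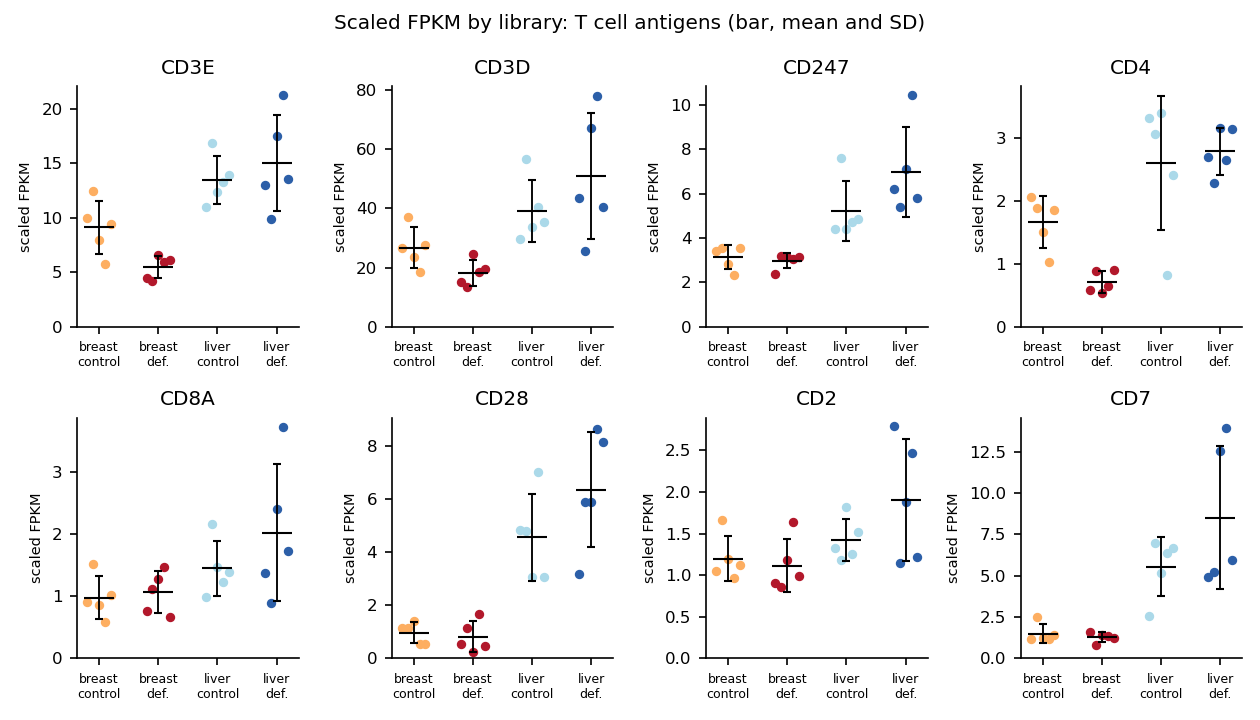
Scaled FPKM (y axis, from 0) of 8 T cell antigens in each library of the 4 groups; points are libraries 1 to 5 from left to right and bars the mean and SD (n = 5). CD4 in breast separates the diets, CD247 and CD8A do not, and liver control 4 is low for CD4 at 0.829.

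The B cell antigens were low in muscle. CD72, an inhibitory lectin receptor, had 1.39, 0.937, 2.44, 2.02 and 1.04 in controls and 0.719, 0.346, 0.531, 0.218 and 1.10 in deficient libraries. Its groups overlapped (log2 change -0.69 ± 0.20 SE, limma adjusted p = 0.026), and the call was lost without deficient 2, 3 or 4 (adjusted p between 0.0513 and 0.0621), and without control 3 or 4 it did not pass the filter. CD180 (RP105), a relative of the Toll-like receptors on B cells and myeloid cells, did not pass the filter, and its 1.04, 1.79, 1.46, 1.34 and 1.26 in controls lay above the 0.445, 0.886, 0.231, 0.411 and 0.606 of deficient libraries. CD79B, the signalling chain of the B cell receptor, averaged 0.489 ± 0.215 and 0.248 ± 0.0759 (SD, n = 5 each). With no filter on level, 10.9% of 14741 genes were called lower and 8% higher in breast, and 17 of the 44 members were lower, CD86 (log2 change -0.74 ± 0.10 SE, limma adjusted p = 0.00268) and CD180 (-0.66 ± 0.12, 0.00667) being the additions. The remaining members below the filter, with adjusted p between 0.0692 and 0.782 in that fit, were CD1A1, CD5, CD8B, CD9, CD28, CD79B, CD101, CD109, CD200R1, CD226 and the shorter CD8A model.

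The general leukocyte marker was lower in deficient breast as well. PTPRC (CD45), the phosphatase carried by nearly all leukocytes, had a mean of 10.5 ± 1.59 on the control and 4.09 ± 1.51 on the deficient diet (SD, n = 5 each), a log2 change of -1.21 ± 0.18 (SE, limma adjusted p = 0.00174). In liver it was 11.8 ± 2.96 on the control and 11.4 ± 3.10 on the deficient diet. Against PTPRC in the same library, several antigens moved little in breast, given here as a description without a test. The mean log2 ratio moved by 0.02 for CD44, -0.02 for CD80, -0.07 for CD300A, 0.20 for CD4 and 0.21 for CD244. CD14 and CD274 moved by -0.71 and -0.24, with overlapping libraries. It moved by 0.71 for CD3E, 0.87 for CD3D, 1.36 for CD247, 1.30 for CD2 and 1.54 for CD8A. For 4 leukocyte-restricted members (CD2, CD247, CD3D and CD83) and 7 broadly expressed ones, the ratio in all deficient libraries was above that in all controls. The same held for 67.7% of all 10177 other genes tested in breast, and 0.0786% were wholly below, so the members' count lay under the background share. A gene whose own level did not move rises against PTPRC by the size of the PTPRC fall.

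**Figure D5:**
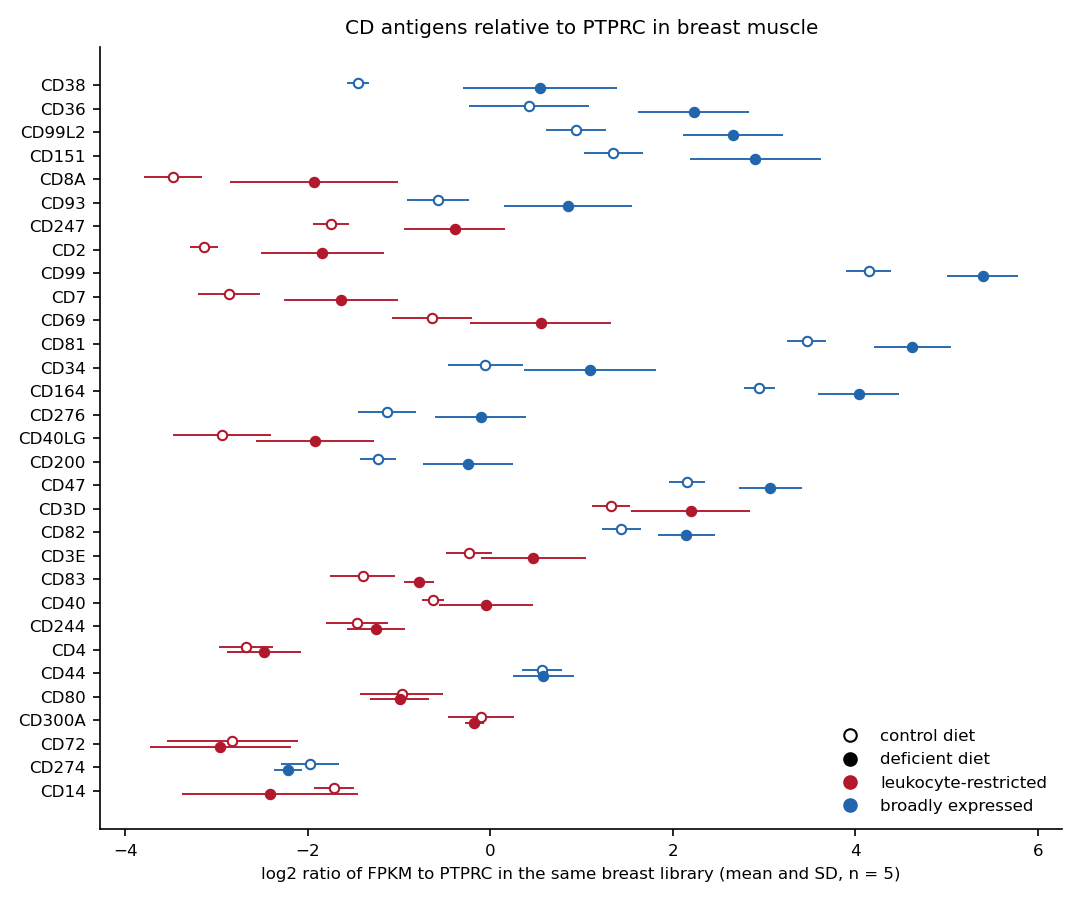
Log2 ratio of each member's FPKM to that of PTPRC in the same breast library (x axis; mean and SD, n = 5), on the control diet (open) and the deficient diet (filled). CD44, CD80, CD300A and CD72 sit at nearly the same ratio on both diets, and members further up the plot shift to the right; colours separate leukocyte-restricted from broadly expressed genes.

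Other leukocyte markers moved with the CD antigens in breast. The counts below stand beside 14.6% of all genes tested in breast called lower and 12.9% higher. Some genes, CSF3R and IL2RG among them, are on more than 1 list, so the counts of the lists are not separate from each other. The lists were chosen with earlier results of these data known, so the counts are a description and no independent support. Only genes past the filter were counted, such as 6 of 13 T and NK cell markers and 5 of 12 thrombocyte markers found. A gene can pass through its control libraries alone, so the counts are not independent of the falls. Of CD antigens that go by other symbols, 18 of 24 tested leukocyte genes fell and 0 rose (median log2 change -0.77), with CSF3R, the receptor of granulocyte growth factor, at -1.95, the integrin chain ITGB2 at -1.54, the cytokine receptor chain IL2RG at -1.31 and PDCD1, the receptor of CD274, at -1.02. Of 43 broadly expressed genes of that kind, 11 fell and 1 rose, MME at 0.51 (named after its value was seen), with falls of IFNAR1 (-1.02), TNFRSF1B (-0.96), VCAM1 (-1.06) and ENTPD1 (-0.90). Macrophage markers fell in 12 of 15 cases, with CTSS at -1.28, MPEG1 at -1.38, C3AR1 at -1.55 and SPI1 at -1.34, and heterophil markers in 8 of 9, with NCF4 at -0.96 and MMP9 at -1.96. Heterophils are the avian counterpart of neutrophils. T and NK cell markers outside the members fell in 4 of 6 cases, B cell markers in 5 of 7 and thrombocyte markers in 3 of 5. Endothelial markers rose in 1 and fell in 1 of 13 cases, fibroblast markers rose in 1 and fell in 4 of 13, adipocyte markers fell in 2 of 10, erythroid markers rose in 2 of 5, hepatocyte markers fell in 2 of 5, and all 8 myocyte markers tested rose.

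Summed macrophage markers were between 583 and 683 scaled FPKM in control breast and between 246 and 390 in deficient breast, with no marker at 0 in either group. For T and NK cells the sums were between 34.7 and 48.0 and between 17.3 and 25.0, with 1 of 13 markers at 0 in all deficient libraries. B cell sums were between 38.0 and 53.6 and between 11.7 and 31.3, and heterophil sums between 127 and 350 and between 19.0 and 88.1. The part of cell numbers in the falls of single members was not tested.

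In liver none of 34 members tested was called on the deficient diet, nor was any of the 10188 genes tested (0% higher and 0% lower by limma), although 849 genes and 3 members had an unadjusted p under 0.05. For no member did the libraries of the diets separate, where 0.854% of all genes were wholly higher and 0.952% wholly lower. CD83 had 3.22, 3.20, 3.19, 3.20 and 2.09 in control and 5.02, 3.04, 4.23, 5.19 and 3.61 in deficient liver libraries (log2 change 0.38 ± 0.14 SE, limma adjusted p = 0.476). CD244 had 1.71, 1.41, 1.55, 1.57 and 2.14 and 2.60, 1.81, 2.81, 3.06 and 1.68 (log2 change 0.33 ± 0.14 SE, limma adjusted p = 0.561). CD93 had 4.91, 4.16, 5.12, 3.61 and 5.14 and 4.12, 3.20, 3.06, 3.53 and 4.24 (log2 change -0.27 ± 0.11 SE, limma adjusted p = 0.553). All 3 overlapped between diets.

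The liver values of T and NK cell members were on the higher side in 11 of 11 cases, with none called. Their median was 0.25, beside 0 over all genes. The 11 are not independent cases. Deficient 3 and 4 were the highest deficient libraries for CD3D, CD3E, CD7, CD8A, CD40LG, CD244 and CD247, but not for CD2, CD4, CD28 and CD69. CD7 had 2.57, 6.99, 5.17, 6.37 and 6.71 in control and 4.94, 5.24, 12.6, 13.9 and 5.96 in deficient liver (log2 change 0.48 ± 0.32 SE, limma adjusted p = 0.772), where deficient 3 and 4 stood apart. CD28 had 4.85, 4.81, 3.06, 7.03 and 3.07 and 3.20, 5.91, 5.88, 8.66 and 8.14 (log2 change 0.39 ± 0.25 SE, limma adjusted p = 0.756). CD4 had 3.32, 3.07, 3.40, 0.829 and 2.42 and 2.70, 2.29, 3.16, 2.65 and 3.15, with liver control 4 far below the rest (log2 change 0.13 ± 0.22 SE, limma adjusted p = 0.922). Without that library its log2 change was -0.095. The 4 tetraspanins were all on the lower side, between -0.24 and -0.16. CD36 was 87.5 ± 5.06 and 90.5 ± 16.9 (SD, n = 5 each, log2 change 0.031 ± 0.13 SE, limma adjusted p = 0.969). CD44 was 8.37 ± 4.0 and 5.79 ± 0.704, its control mean raised by liver control 5 at 15.3 (log2 change -0.38 ± 0.22 SE, limma adjusted p = 0.705). The 14 breast-called members that were also tested in liver had liver log2 changes between -0.38 and 0.33, 10 of them below 0.

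The difference between the diet effects was tested directly for 30 members, as the liver change minus the breast change. It was called for 6, each with the liver effect above the breast effect, where 5.54% of 9144 genes were called in that direction and 3.63% in the other. Without scaling 96.2% of 1871 calls were in the first direction, the median of all genes moved to 0.298 and 16 members were called. With quantile normalization 63.3% of 708 calls were in the first direction and 4 members were called. With upper-quartile scaling 74.3% were and 6 members. The 6 members were CD244 (log2 difference 1.19 ± 0.22 SE, limma adjusted p = 0.00359), CD14 (log2 difference 1.11 ± 0.24 SE, limma adjusted p = 0.00929), CD83 (log2 difference 0.97 ± 0.26 SE, limma adjusted p = 0.0274), CD80 (log2 difference 0.95 ± 0.26 SE, limma adjusted p = 0.0311), CD274 (log2 difference 0.94 ± 0.26 SE, limma adjusted p = 0.0311) and CD40 (log2 difference 0.91 ± 0.26 SE, limma adjusted p = 0.0357). CD14, for example, had 2.46, 1.83, 2.28, 1.27 and 2.62 in control and 2.1, 2.50, 1.93, 1.72 and 1.22 in deficient liver, nearly the same range, beside its separated groups in breast. Of the 6, 5 were leukocyte-restricted, out of 15 tested, and 1 broadly expressed, out of 15. Members had to pass the filter in both tissues. CD14 and CD274 averaged 0.859 and 0.888 in deficient breast and passed in breast only through their control libraries. Their place among the 30 is therefore not independent of the difference called, and the same holds for CD4 (0.713), which was tested and not called.

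The calls of CD244 and CD14 held without any 1 library. That of CD83 was lost without breast control 2, breast deficient 3 or liver deficient 4 (adjusted p between 0.0511 and 0.0555). That of CD80 was lost without breast control 2 or 4, breast deficient 3 or 4, or liver control 1, 2 or 3 (between 0.0501 and 0.0661). That of CD274 was lost without breast control 2, breast deficient 2, 3 or 4, liver control 2 or 3, or liver deficient 4 (between 0.0512 and 0.0697). CD40 was lost in 11 of 20 such fits: breast control 1, 2 or 3, breast deficient 3 or 4, liver control 1, 2 or 4, and liver deficient 2, 4 or 5 (between 0.0519 and 0.0692). Without liver control 4 and liver deficient 1 together, CD40 (0.0593) and CD83 (0.0615) were not called. Without liver control 1 as well, CD40 (0.11) and CD83 (0.0788) were again not called. CD300A (1.11, adjusted p = 0.0656) and CD44 (0.87, 0.0634) were not called, but were without breast deficient 5 or liver control 5 (0.0283 and 0.00865 as the 2 values for CD300A, 0.0319 and 0.005 for CD44). Without liver control 5 CD99L2 was also called, in the other direction, with the liver effect below the breast effect (-0.637, limma adjusted p = 0.0474). With quantile normalization CD274 (limma adjusted p = 0.0558) and CD80 (0.0511) were not called. With the replicate number as a block CD274 (0.0755) and CD40 (0.0526) were not called, and CD3D (0.0489), CD3E (0.0343) and CD4 (0.032) were. Without the block CD4 (0.77, 0.0728) and CD3E (0.74, 0.0852) were not called, and CD3E was without breast control 4 or liver deficient 2 (0.044 and 0.0408).

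Levels of most members tested differed between the tissues on both diets, and so did those of most genes tested. On the control diet 17 of 34 members were higher in liver (50%) and 8 lower (23.5%), where 35.2% of all genes tested were higher and 34.2% lower. Without scaling 13 were higher and 9 lower (39.9% of all 7385 calls higher). With upper-quartile scaling (44.1% of 7490) or quantile normalization (45.8% of 7662) 15 were higher and 8 lower. The call of CD82 was lost in each of these fits (limma adjusted p = 0.246, 0.0761 and 0.0991). That of CD80 was lost there too (0.257, 0.129 and 0.0681). Without scaling CD3E (0.113) and CD40LG (0.0891) were also lost, and CD300A was called lower (0.0459). The deepest difference was that of CD99, 183 ± 16.1 in breast and 10.9 ± 2.05 in liver jointly scaled FPKM (SD, n = 5 each, log2 difference -3.96 ± 0.13 SE, limma adjusted p = 5.22e-16). CD34 (log2 difference -2.35 ± 0.19 SE, limma adjusted p = 1.31e-09), CD99L2 (log2 difference -1.60 ± 0.16 SE, limma adjusted p = 1.88e-08) and CD276 (log2 difference -1.34 ± 0.11 SE, limma adjusted p = 6.9e-10) were also lower in liver. CD36 (15.1 ± 7.42 in breast, 88.3 ± 5.18 in liver) and the tetraspanin CD9 (0.664 ± 0.329 and 8.93 ± 1.61) were the members with the largest excess in liver, both at a log2 difference of 2.58. CD28 (1.5 ± 0.25 SE), CD7 (1.38 ± 0.26), CD38 (1.36 ± 0.19), CD47 (1.28 ± 0.11), CD81 (1.06 ± 0.13) and CD274 (1.02 ± 0.19) were higher in liver too. CD9 and CD28 averaged 0.839 and 0.889 in breast and passed the filter, set on the mean over the 20 libraries, only through liver. Their place among the members tested is not independent of their excess in liver.

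Leukocyte-restricted members were called higher in liver in 7 of 18 cases (38.9%) on the control diet, near the 35.2% of all genes. CD244 (-0.83 ± 0.15 SE) and CD14 (-0.44 ± 0.17) were lower (11.1%, where 34.2% of all genes were). On the deficient diet 16 of 18 were higher in liver (88.9%) and 0 lower. Over all members 25 were higher (73.5%) and 5 lower (14.7%), where 37.4% of all genes were higher and 36.1% lower. The filter here used the mean over the 20 libraries. Of the 18, CD28, CD86 and CD180 averaged under 1 in breast (0.889, 0.760 and 0.946) and passed only through liver. Their place among the members tested is not independent of their higher liver level. CD72, at 1.07 in breast and 0.392 in liver, did not pass. CD14 was lower in liver on the control diet (log2 difference -0.44 ± 0.17 SE, limma adjusted p = 0.032) and higher on the deficient diet (log2 difference 0.65 ± 0.17 SE, limma adjusted p = 0.00234). CD44 was lower in liver on the control diet (log2 difference -0.86 ± 0.20 SE, limma adjusted p = 0.000845) and not called on the deficient diet (log2 difference -0.033 ± 0.20 SE, limma adjusted p = 0.896). The group means of the 2 contrasts share no library. Both contrasts come from the same fit over the 20 libraries, with shared scaling, filter and residual spread, so their calls are not independent tests. The difference between the contrasts is what the tissue-by-diet comparison tests, with scaling within each tissue. The control-diet call of CD14 was lost without breast control 2 or 3 or liver control 2 or 4 (limma adjusted p between 0.0632 and 0.104). That of CD80 was lost without breast control 1 or 3 or liver control 4 or 5 (between 0.0572 and 0.123). That of CD40LG was lost without breast control 3 (0.0642) or liver control 4 (0.055). With a pseudocount of 0.1 CD14 (0.108) and CD80 (0.0505) were not called, nor was CD80 with no filter (0.0542). Without liver control 4 and liver deficient 1, the control-diet calls of CD14 (limma adjusted p = 0.114), CD80 (0.113) and CD40LG (0.0605) were lost and CD4 was called higher in liver (0.000342). Without liver control 1 as well, that of CD93 was also lost (0.0529). On the deficient diet that of CD2 was lost without the pair (0.0686) and without all 3 libraries (0.0756). That of CD300A was lost without breast deficient 1, 2, 3 or 4 or liver deficient 2 or 4 (limma adjusted p between 0.0585 and 0.104). That of CD8A was lost without breast deficient 1 or 5 or liver deficient 3 or 4 (between 0.0806 and 0.131). Both were lost with quantile normalization (0.0815 and 0.0887). CD244 was called higher without breast control 2 or 5, breast deficient 1 or 5, or liver deficient 2 or 5 (between 0.0253 and 0.0489). With only liver control 1 left out, CD3D was called higher in liver on the control diet (0.654, limma adjusted p = 0.0383).

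Transcript models were available for comparison in 4 members. CD47 has 3 models, and the 1642-base model carried 68.1% of the gene's scaled FPKM in breast of control birds and 73.0% on the deficient diet, beside 59.6% and 52.2% in liver. Its shortest model, of 1252 bases, carried 4.40% of the gene in control breast, at 2.04 ± 0.316 (SD, n = 5), and 17.4% in control liver, at 19.5 ± 4.55 (SD, n = 5, scaled within liver). For CD300A the 1511-base model carried between 57.2% and 64.5% in each group and went from 6.38 ± 1.33 to 2.24 ± 0.754 in breast, without overlap. The 2 models of CD8A traded nearly all of the value between libraries, down to 2.59e-05 for one of them in a control breast library, so their split could not be read at this depth. Coverage, the mean read depth over the transcript, was between 26.6 and 55.7 for CD44 and between 4.93 and 11.2 for CD14 in control breast, but between 0.347 and 2.73 for CD14 in deficient breast.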

How the data were processed

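RNA of 20 libraries (5 per tissue and diet) was sequenced from TruSeq RNA libraries, per the labels' protocols. The deposited FPKM and coverage values per gene and transcript, 1 file set per library, are in Cufflinks tracking format, per the file headers. TopHat2 2.0.9, Bowtie 1.0.0, Cufflinks 2.1.1, Cuffdiff 2.1.1 and build galGal4 are named, without roles, per the submitters' processing notes. The deposited files hold no counts, so depth was taken as coverage times length and no counting interval was computed. Coordinates are those of the files, with starts counted from 1.

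Libraries were scaled by median ratios against geometric means, taken from genes that no library lists at 0 and whose mean FPKM is 1 or more, within a tissue for diet comparisons and over 20 libraries for tissue contrasts. This gene set replaced all genes above 0 after a first fit had been seen, and the latter is given as an alternative. Genes whose scaled FPKM averaged 1 or more were tested, and 3 genes in breast and 1 in liver with a failed estimate were left out. limma 3.58.1 (R 4.3.3, two-sided, with a mean-variance trend) was fitted to log2(scaled FPKM + 1), with Benjamini-Hochberg adjustment over all genes tested and a threshold of 0.05. Tables and plots used Python 3.11.15, pandas 2.3.3 and matplotlib 3.10.9, and the fitting script was tested on simulated data. Alternatives were other scalings, a pseudocount of 0.1, no filter or a filter at 5, no trend, the replicate number as a block, and leaving out libraries.

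The members, classes and gene lists were chosen with earlier results of these data known. Values per library are given for members called in a diet or tissue-by-diet fit and for textbook members (CD3E, CD4, CD8A, CD28, CD36, CD44, CD34); others given per library were added after their values were seen. Up to 4 genes of smallest p are named per list. The labels do not say that equal library numbers are one bird. P-values set a difference of group means against the spread between these libraries, with variances moderated across the genes tested.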

Additional observations from a re-analysis of the deposited data

Results flagged for a closer look

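Of 130 groups of 5 libraries, 13 held a library whose gap to its nearest neighbour exceeded 0.71 of the group's range (Dixon's 95% value), where chance gives about 1 in 20. In breast these were CD36 in deficient 4 (28.1 scaled FPKM), CD40LG in deficient 4 (1.64), CD274 in deficient 5 (1.54), CD38 in deficient 3 (9.45), CD247 in deficient 1 (2.36) and CD7 in control 2 (2.49). In liver they were CD44 in control 5 (15.3), CD83 in control 5 (2.09), CD38 in control 2 (17.6), CD247 in control 2 (7.62), CD34 in control 1 (2.08), CD80 in control 4 (10.5) and CD80 in deficient 5 (11.6). Liver control 1 was also the liver library with the high myocyte marker sum, and the part of that in its CD34 value was not tested.

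The diet effect differed between the tissues in a direct test for 6 members. The liver change minus the breast change, on the log2 scale, was 1.19 for CD244, 1.11 for CD14, 0.97 for CD83, 0.95 for CD80, 0.94 for CD274 and 0.91 for CD40. CD14 and CD274 passed the filter in breast only through their control libraries.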

How the results depend on the processing

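Of the counts of called members recomputed under the alternatives, 281 stayed within 1.5 times the reported count, 13 fell below and 1 rose above. No called member reversed among those compared. Directions were compared for all members tested in breast, but only for a chosen part of the members in liver, tissue by diet and the tissue contrasts. A filter at 5 left 16 members tested in breast and 8 called (3 leukocyte-restricted), 1 called for tissue by diet, 16 called on the control diet between tissues (11 higher and 5 lower in liver) and 16 on the deficient diet (12 higher). Without scaling, 16 members were called for tissue by diet. Leaving out 1 library gave between 12 and 16 called in breast (6 to 9 leukocyte-restricted, 5 to 7 broad), 0 in liver, 2 to 9 for tissue by diet, 22 to 26 between tissues on the control diet (15 to 18 higher, 7 to 9 lower) and 27 to 31 on the deficient diet (22 to 26 higher, 5 lower). Tissue by diet fell to 2 without breast control 2 or breast deficient 3 and to 3 without breast deficient 4, liver control 2 or liver deficient 4. Without liver control 5, tissue by diet held 8 members with the liver effect above the breast effect and 1 below.

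Among the members compared, directions that changed belonged to uncalled ones, and the cause was not tested. Outside breast the list is not complete, because the other members were not compared there. In breast these were CD99L2 (-0.008), CD93 (-0.259), CD151 (-0.168) and CD8A (-0.104) without scaling, CD93 (-0.059) with upper-quartile scaling, and CD2 (0.093), CD247 (0.07) and CD7 (0.035) with quantile normalization. Leaving out 1 breast library gave ranges from -0.062 to 0.126 for CD93, -0.141 to 0.01 for CD2, -0.164 to 0.01 for CD7, -0.015 to 0.134 for CD8A, -0.123 to 0.012 for CD247 and -0.328 to 0.062 for CD69. In liver CD274 was 0.008 without scaling and, with 1 library left out, ranged from -0.195 to 0.073, with 0.042 and 0.049 in between, CD36 from -0.051 to 0.106 and CD4 from -0.095 to 0.22. Without liver control 4 and liver deficient 1, CD274 was 0.077, CD4 -0.088 and CD80 0.056, and without liver control 1 as well 0.116, -0.055 and 0.054. On the deficient diet between tissues CD44 was 0.126 without scaling and from -0.156 to 0.071 when 1 library was left out.

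With other settings CD200 (adjusted p = 0.105) and CD72 (0.0584) lost their breast call under quantile normalization by limma, and CD81 (0.051) with scaling over all genes above 0, which left 14 lower. Gained in breast were CD38 (0.0301, higher) and CD3D (0.0413) under quantile normalization, CD38 (0.05, higher) with a pseudocount of 0.1, CD276 (0.0422) and CD3D (0.0372) under upper-quartile scaling, and CD99, CD276, CD3D and CD83 without scaling. With the replicate number as a block 12 members were lower in breast, where CD200, CD81, CD72 and CD3E were not called and CD276 was. The diets were fed to different birds, so within a tissue this block does not pair libraries of the same bird. For tissue by diet the block called 7, without CD274 and CD40 and with CD3D, CD3E and CD4. Deviations of equally numbered libraries correlated between -0.198 and 0.091 across diets. Across tissues they correlated between 0.01 and 0.211, positive in all 10 breast and liver pairs but not over 0.1 in each. Unequally numbered libraries were not set beside them, so these values cannot decide whether equal numbers in breast and liver are the same bird. The main fits over both tissues treated all 20 libraries as independent. The labels count 5 birds per diet, so birds may be shared between tissues, which those p-values do not take into account. CD86, CD180 and 11 others averaged under 1 scaled FPKM and were tested in breast only without a filter.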
